A study of Mus musculus with 12 samples.

Results

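Upper layer cortical neuron genes are genes whose transcripts mark the late-born excitatory neurons in the outer layers of the cerebral cortex. The 9 genes described here, Cux1, Cux2, Pou3f1, Pou3f2, Pou3f3, Rorb, Mdga1, Unc5d and Inhba, were chosen by name, as known markers of these neurons, from the 55357 genes listed in each count file. RNA was measured in mouse embryos at E17.5, in cortex and hippocampal formation dissected away from the ventral forebrain and then cut into a rostral and a caudal piece. The knockout embryos carried 2 floxed alleles of Egfr, the epidermal growth factor receptor, with Nestin-Cre, which recombines in neural progenitors and so in the neurons and glia born from them. The control embryos carried 1 floxed allele beside an unfloxed one (EgfrF/+), and whether they carried Cre is not given in the sources used here, so loss of Egfr and presence of Cre cannot be told apart. Each of the 4 groups (knockout rostral, knockout caudal, control rostral, control caudal) held 3 libraries, and the titles assign the 12 libraries to 6 embryos, numbered 5, 2 and 7 for the knockouts and 1, 3 and 9 for the controls. The titles also carry the number 4858 (knockout 5 and control 1) or 4692 (the other 4 embryos), which the labels do not explain. In whole tissue of this kind, fewer cells of a type and less RNA per cell cannot be told apart.

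The neurons of the cortex are born in sequence from radial glia and intermediate progenitors, deep layers first and upper layers last, so that around this age upper layer neurons are still migrating or have just arrived. Cux1 and Cux2 are homeodomain transcription factors of upper layer neurons and of the progenitors beneath them, and the POU homeodomain factors Pou3f1 (Oct6), Pou3f2 (Brn2) and Pou3f3 (Brn1) act in the production and migration of these cells. Rorb is an orphan nuclear receptor of layer 4, the layer that receives thalamic input in sensory areas. Mdga1 is a cell surface protein that binds neuroligins, Unc5d is a receptor for netrins and FLRT proteins on migrating upper layer neurons, and Inhba encodes a subunit of the secreted ligand activin A. None of the 9 is specific to upper layers at this age, since several are also transcribed in progenitors, hippocampus or interneurons.

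The sequences just before the start sites of 5 of these genes are shown because the results turn on them: Pou3f2, Pou3f3 and Cux1 went up and down together over the libraries, Rorb had the steepest negative slope on Nr2f1 of the 9 and also ran with Cux1, and Mdga1 ran the other way. The windows are the 250 bases before the start in RefSeq's table for GRCm38.p6, another build than the GRCm39 of the counts, 5′ to 3′ on the gene's strand: Pou3f3 at chr1:42695518-42695767 (plus strand), Pou3f2 at chr4:22488367-22488616 (minus strand), Rorb at chr19:19111197-19111446 (minus strand; the upstream one of 2 windows listed), Cux1 at chr5:136565982-136566231 (minus strand) and Mdga1 at chr17:29887883-29888132 (minus strand). Capitals mark the letters CCAAT on either strand (ATTGG where it lies on the other one).
Pou3f3: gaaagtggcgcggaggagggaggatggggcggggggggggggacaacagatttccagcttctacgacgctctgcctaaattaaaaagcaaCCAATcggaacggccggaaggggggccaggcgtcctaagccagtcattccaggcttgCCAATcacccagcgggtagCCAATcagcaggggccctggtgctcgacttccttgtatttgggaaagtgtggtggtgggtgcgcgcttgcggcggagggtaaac
Pou3f2: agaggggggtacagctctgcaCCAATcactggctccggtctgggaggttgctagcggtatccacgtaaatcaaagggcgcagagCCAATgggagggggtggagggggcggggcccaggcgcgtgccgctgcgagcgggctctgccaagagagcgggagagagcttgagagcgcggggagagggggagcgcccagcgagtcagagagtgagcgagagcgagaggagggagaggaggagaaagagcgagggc
Rorb: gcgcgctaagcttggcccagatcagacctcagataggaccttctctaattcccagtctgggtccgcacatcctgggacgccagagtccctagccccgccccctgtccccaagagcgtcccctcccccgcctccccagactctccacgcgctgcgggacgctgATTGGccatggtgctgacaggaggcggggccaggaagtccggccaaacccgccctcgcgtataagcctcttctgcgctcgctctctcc
Cux1: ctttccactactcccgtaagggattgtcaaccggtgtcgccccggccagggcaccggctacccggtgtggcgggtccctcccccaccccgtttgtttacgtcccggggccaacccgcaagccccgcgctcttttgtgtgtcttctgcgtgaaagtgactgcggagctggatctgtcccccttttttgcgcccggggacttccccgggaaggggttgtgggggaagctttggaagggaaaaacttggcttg
Mdga1: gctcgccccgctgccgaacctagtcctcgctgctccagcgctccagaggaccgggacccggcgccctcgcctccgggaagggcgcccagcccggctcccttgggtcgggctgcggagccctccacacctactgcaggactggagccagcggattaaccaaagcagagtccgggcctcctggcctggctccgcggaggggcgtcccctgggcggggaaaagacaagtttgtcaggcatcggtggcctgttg
CCAAT stood 3 times in the Pou3f3 window, 2 times in that of Pou3f2, 1 time in the Rorb window shown and not in those of Cux1 and Mdga1. It is a common run of letters, held by 33.85% of the 32851 windows in the table (11120 windows), so its presence sets none of these genes apart. The windows of Cux2 and Inhba held none either, and the second Rorb window held none. The nuclear receptor half-site AGGTCA (reverse complement TGACCT), held by 14.02% of all windows, and the POU octamer ATGCAAAT (reverse complement ATTTGCAT), held by 1.6%, were found in none of the 9 windows of the 7 genes matched. With neither found, no CCAAT overlapped another motif searched. Pou3f1 and Unc5d were matched to no window. GC content was 60.8% in the Pou3f3 window, 66.8% in that of Pou3f2, 66.0% in that of Rorb, 62.8% in that of Cux1 and 70.4% in that of Mdga1, against a median of 52.4% over all windows.

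The libraries held between 25223733 and 30383672 counts, and 25682 to 27178 genes were detected in each. Egfr stood at 3.60 to 7.33 CPM (counts scaled to a library total of 1000000) in the 6 knockout libraries and at 19.2 to 41.6 CPM in the 6 controls, with no overlap. The labels rostral and caudal, and the pairing of libraries by embryo, were not borne out by the counts. Xist and Y-linked transcripts took opposite levels in the rostral and caudal libraries of knockouts 5 and 2 and of control 9 (Xist at 0 and 253 CPM and Y genes at 172 and 1.73 CPM in rostral and caudal 9), and both were present in control rostral 1 and 3 (Xist at 230 and 278 CPM, Y genes at 94.6 and 92.0 CPM). Nr2f1 (COUP-TFI), a nuclear receptor of caudal cortical areas that rostral areas make less of, ranged from 50.7 to 373 CPM and did not follow the labels throughout. It was higher in the caudal library in 4 of the 6 titled embryos and higher in the rostral one in knockout 2 (340.2 against 71.3 CPM) and control 3 (348 against 58.6 CPM). Mitochondrial transcripts made up 7.25% of counts in knockout rostral 7 and 4.77% in knockout caudal 5, and 1.96% to 3.53% in the other 10 libraries. The knockout caudal libraries all held Xist (323.9 to 426.5 CPM) with Y-linked transcripts at 0.066 CPM or below. Knockout rostral 5 and 2 held Y-linked transcripts (152 and 162 CPM) with almost no Xist, and knockout rostral 7 held Xist (450 CPM). Control caudal 1 held Y-linked transcripts (178 CPM) without Xist, and control caudal 3 and 9 mainly Xist (488 and 253 CPM). Sex by these transcripts was thus uneven over the groups. Groups are used below as labelled, and no library was moved.

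Markers of cortical excitatory neurons were present throughout, with a list that includes Emx1, Neurod2, Neurod6 and Slc17a7 summing to between 1306 and 2230 CPM and no gene of it at 0. The 14 markers of ventral forebrain and striatum, such as Drd1, Ebf1 and Gad2, were also above 0 in every library and summed to between 174 and 1026 CPM, although the dissection removed the ventral forebrain. Gad1 and Gad2 are also made by interneurons of the cortex. Choroid plexus markers summed to 0.41 to 57.2 CPM, with Ttr and Folr1 at 0 in some libraries.

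All 9 upper layer genes were expressed in every library and passed the filter on low counts in each comparison. Compared per length (CPM per kb of exon, mean ± SD over the 12 libraries), Pou3f3 was the most abundant at 137.7 ± 25.7 (SD, n = 12), followed by Pou3f2 at 63.9 ± 23.5, Unc5d at 35.9 ± 10.1 and Pou3f1 at 22.1 ± 3.63. Each of these 4 exceeded the next in 12 of 12 libraries, except that Pou3f1 exceeded Cux2 (19.0 ± 2.94) in 11 of 12. Cux2 exceeded Cux1 (16.1 ± 3.44) in 11 of 12, whereas Cux1 and Mdga1 (15.5 ± 3.56) changed places between libraries, with Cux1 the higher in 7 of 12. A wide gap then separated Mdga1 from Rorb at 1.24 ± 0.45 and Inhba at 1.12 ± 0.45, whose order also changed, Rorb being higher in 5 of 12 libraries. Of these 8 neighbouring pairs, Mdga1 and Rorb was the pair whose ranges did not meet. The order depends on the length used, which takes in all annotated exons of a gene (20024 bases for Cux1 and 10082 for Cux2). In CPM without regard to length, Cux1 had a mean of 323, above Cux2 at 192 and Mdga1 at 148.

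The spread over libraries differed from gene to gene. Inhba varied most, 3.65-fold between its lowest and highest library, followed by Pou3f2 at 3.33-fold, Rorb at 2.57-fold and Unc5d at 2.34-fold. Pou3f3, the most abundant, varied 1.70-fold and Pou3f1 1.73-fold. The highest value of Pou3f2, Pou3f3, Rorb and Unc5d lay in knockout caudal 2, and that of Cux1, Cux2, Pou3f1 and Inhba in knockout rostral 5. Cux2 was the steadiest gene in the controls, at 180 to 202 CPM with a coefficient of variation of 4.94%, against 142 to 259 CPM and 21.7% in the knockouts. The 2 knockout libraries lowest in Cux2, rostral 7 at 142 CPM and caudal 5 at 158 CPM, were those with the most mitochondrial transcripts, and the part of the latter in this spread was not tested.

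**Figure D1:**
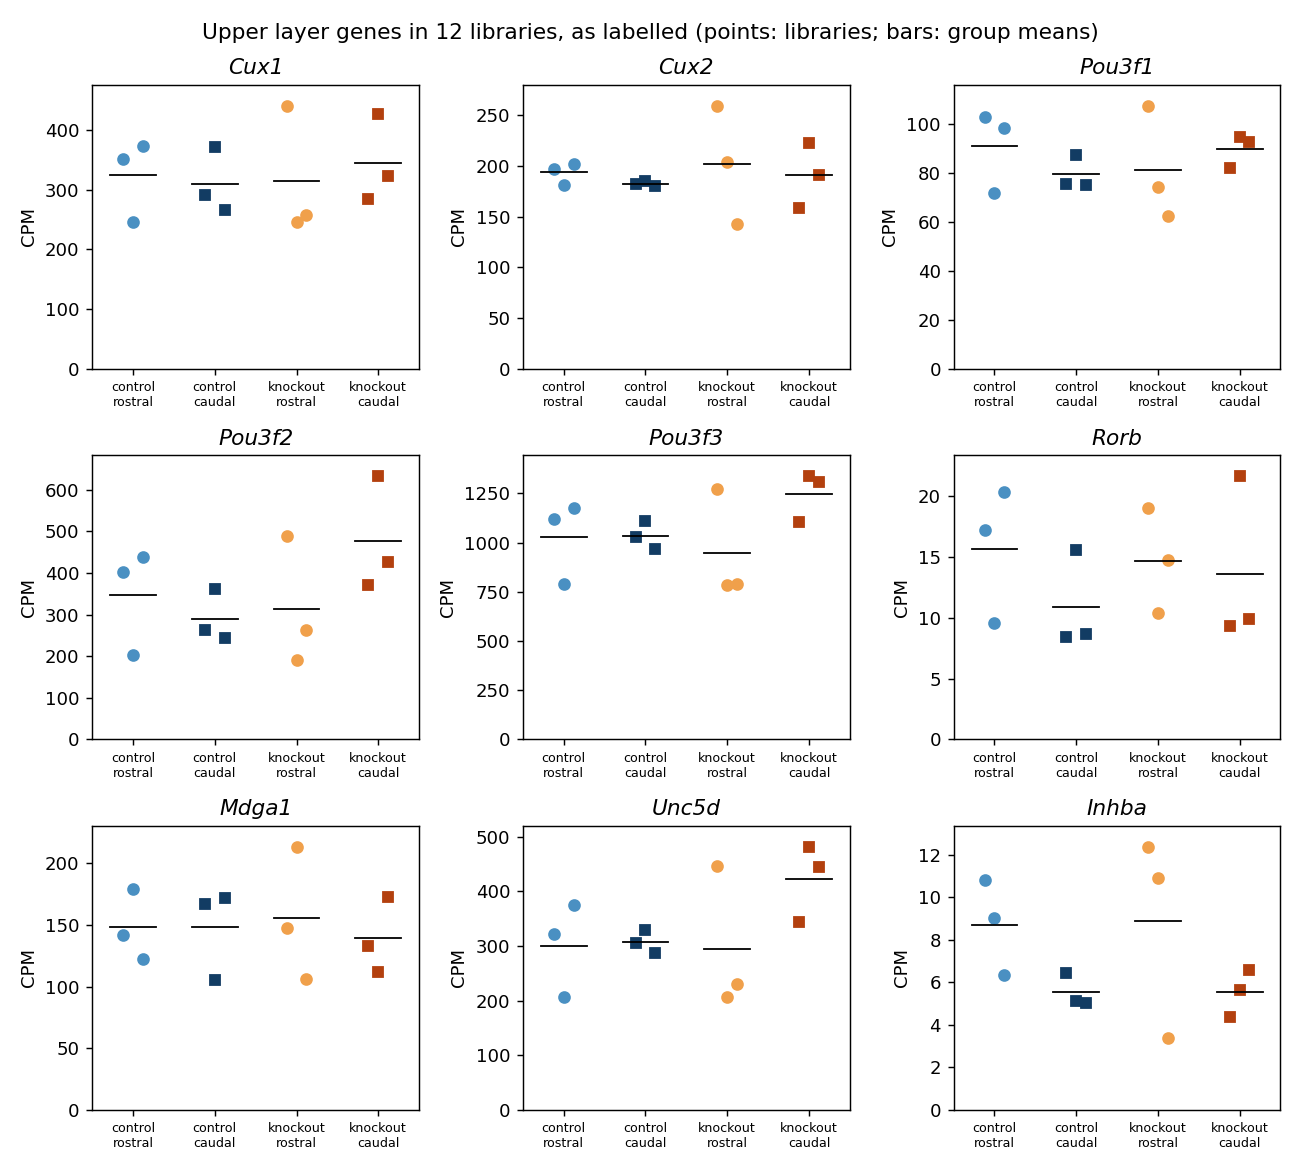
Level of each of the 9 genes in CPM (y axis, from 0) in the 3 libraries of each labelled group (x axis); points are libraries and bars group means. Pou3f2 and Unc5d are the genes whose 3 knockout caudal libraries all lie above the 3 control caudal ones, and Cux2 is spread over 142 to 259 CPM in the knockouts and 180 to 202 CPM in the controls.

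The first comparison asked whether loss of Egfr altered the transcripts of upper layer neurons. No gene of the 9 passed the test between genotypes, in rostral libraries, caudal libraries or the 2 libraries of each titled embryo summed (edgeR quasi-likelihood test, Benjamini-Hochberg adjusted p under 0.05 over all genes). Few genes did at all: 0 of 17131 in rostral libraries (percentage called 0), 8 of 16964 in caudal libraries (0.0472%; 0.0354% higher and 0.0118% lower in the knockout) and 6 of 18935 in the sums (0.0317%; 0.0106% higher and 0.0211% lower). At an unadjusted p under 0.05 there were 180, 871 and 643 genes, and DESeq2 called 4, 77 and 32. Egfr itself was lower in all of them, by 2.48 on the log2 scale in caudal libraries (log2 fold change -2.48, SE 0.17, edgeR adjusted p = 0.0025) and by a log2 fold change of -2.27 in rostral ones (SE 0.30), where edgeR's adjusted p was 1. For the rostral contrast Egfr passed with DESeq2 (adjusted p = 6.1e-10) and with edgeR when all 12 libraries shared 1 fit (adjusted p = 0.0204).

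Among the transcription factors, Pou3f2 gave the widest difference, and it lay in the caudal libraries. Pou3f2 (ENSMUSG00000095139.3, chr4:22482780-22488366 in GRCm39) stood at 372, 632 and 427 CPM in knockout caudal 5, 2 and 7 and at 262, 362 and 243 CPM in control caudal 1, 3 and 9. The lowest knockout value lay just above the highest control value. The fold was 1.66 (95% interval 1.14 to 2.42; log2 fold change 0.73, SE 0.23), and edgeR's adjusted p was 0.829. In rostral libraries the knockout values were 488, 190.0 and 263 CPM for 5, 2 and 7 and the control values 403, 202 and 438 CPM for 1, 3 and 9. These overlapped across their whole range, with a fold of 0.92 (95% interval 0.47 to 1.82). In the sums per titled embryo Pou3f2 was at 427, 401 and 341 CPM in knockouts 5, 2 and 7 and at 333, 285 and 342 CPM in controls 1, 3 and 9, or 390 ± 43.9 against 320 ± 30.6 CPM (SD, n = 3 each). Knockout 7 fell within the control range, and the fold was 1.24 (95% interval 1.07 to 1.44, edgeR adjusted p = 1).

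Pou3f3 (ENSMUSG00000045515.5, chr1:42734085-42742336) differed less. It stood at 1105, 1336 and 1307 CPM in knockout caudal 5, 2 and 7 against 1029, 1111 and 967 CPM in control caudal 1, 3 and 9, so that knockout 5 lay inside the control range. The fold was 1.22 (95% interval 1.00 to 1.48, edgeR adjusted p = 0.969). Pou3f1 gave 1.14 (0.97 to 1.34) in caudal libraries and 1.01 (0.90 to 1.14) in the sums.

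For the remaining transcription factors the intervals in the sums were narrow. Deviations from the group means correlated negatively between libraries of 1 title (-0.681 to -0.164 over 1000 variable genes), and adding such libraries evens them out. Xist and Y-linked transcripts also went against the titled pairing in knockouts 5 and 2 and control 9. Their sums are therefore not taken as values of 1 embryo each, and the pairing of the other titles was not settled. The intervals in the sums, here and for the other genes, therefore do not measure the spread between animals. The fold of Cux1 in the sums was 1.04 (95% interval 0.93 to 1.17) and that of Cux2 1.05 (0.93 to 1.20). Rorb, at 12.4 to 15.8 CPM in the knockout sums and 12.7 to 14.6 CPM in the control sums, gave 1.07 (0.91 to 1.26). The single libraries were less precise, with the interval of Rorb in caudal libraries running from 0.66 to 2.42.

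Of the receptor, adhesion and ligand genes, Unc5d followed Pou3f2. Unc5d (ENSMUSG00000063626.7, chr8:29136745-29709664) was at 343, 481 and 445 CPM in knockout caudal 5, 2 and 7 and at 305, 329 and 287 CPM in control caudal 1, 3 and 9, without overlap. The fold was 1.39 (95% interval 1.11 to 1.75; log2 fold change 0.48, SE 0.14; edgeR adjusted p = 0.756). In rostral libraries it was 1.00 (0.56 to 1.77), with knockout values of 447, 206 and 231 CPM and control values of 321, 206 and 374 CPM. In the sums, Unc5d was at 392, 337 and 333 CPM in knockouts 5, 2 and 7 and at 313, 269 and 331 CPM in controls 1, 3 and 9, again without overlap though knockout 7 and control 9 nearly met (fold 1.18, 95% interval 1.02 to 1.37, edgeR adjusted p = 1). Mdga1 (fold in the sums 1.02, 0.91 to 1.14) and Inhba (1.02, 0.72 to 1.45) gave values near 1, that of Inhba with a wide interval.

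Groups that do not overlap are common among 3 libraries against 3. They were found, with the knockout higher, for 2 of the 9 genes in caudal libraries (4% of all genes tested), 1 of 9 in the sums (3.07%) and 0 of 9 in rostral libraries (1.45%), and for none of the 9 with the knockout lower (6.14%, 5.22% and 4.75%). The log2 fold change was above 0 for 8 of 9 genes in caudal libraries (median 0.19, against 0.00 over all genes), 9 of 9 in the sums (median 0.07, against 0.00) and 3 of 9 in rostral libraries (median -0.01, against 0.00). Of all genes 49.6%, 49.83% and 50.22% were above 0 in these. Several of the 9 went up and down together over the libraries, so they are not separate observations. In the sums Pou3f1 (0.02), Mdga1 (0.03) and Inhba (0.03) lay near 0. The difference between the knockout effects in the caudal and rostral pieces was not called for any of the 9, with a log2 difference of 0.86 for Pou3f2 (SE 0.53) and 0.48 for Unc5d (SE 0.41), each with an edgeR adjusted p of 0.998. No gene at all was called for this difference (0 of 17734, percentage called 0, 486 at an unadjusted p under 0.05, 0 by DESeq2). Of 14 alternatives tried on the sums, 1 called Pou3f2 (edgeR adjusted p = 0.0013) and Unc5d (0.0493), that without a filter on low counts, at the same folds. It called 113 genes in all, the most of any alternative, against 6 in the main fit, which called neither of them. Leaving out 1 titled embryo at a time, the log2 fold change in caudal libraries kept between 0.48 (without knockout 2) and 0.94 (without control 3) for Pou3f2, and between 0.38 (without knockout 2) and 0.62 (without knockout 5) for Unc5d.

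**Figure D2:**
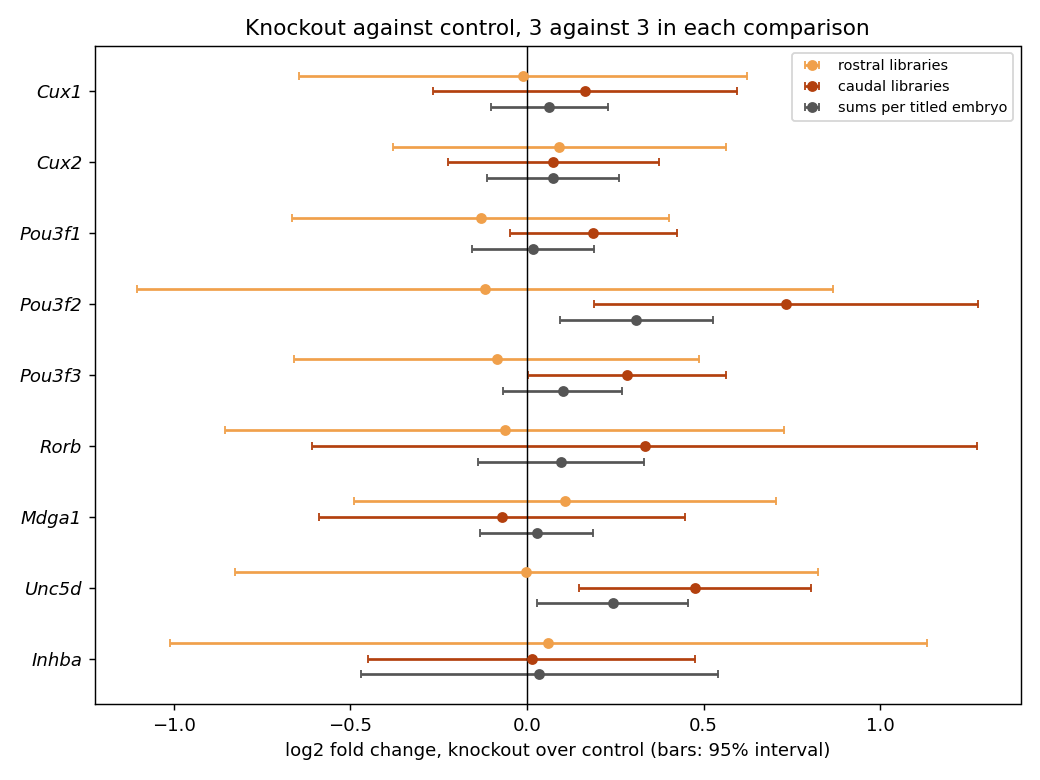
Log2 fold change of knockout over control (x axis) for the 9 genes, in the libraries labelled rostral, those labelled caudal and the sums per titled embryo (3 against 3 each); bars are 95% intervals. The caudal intervals of Pou3f2, Unc5d and Pou3f3 lie above 0 before adjustment over all genes, the rostral interval of each gene spans 0, and no gene passed the adjusted test.

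Other gene lists gave values beside these in the same caudal libraries, and no member of any of the 12 lists was called there. Of 8 genes of neuronal intermediate progenitors, 8 had a log2 fold change above 0 (median 0.40), among them Gadd45g at 0.65 (SE 0.19, edgeR adjusted p = 0.756) and Insm1, a zinc finger factor of delaminating progenitors, at 0.42 (SE 0.10, adjusted p = 0.661). Their summed level was 1019 to 1126 CPM in the knockout caudal libraries and 661 to 923 CPM in the control caudal ones. Of 11 deep layer genes, 8 were below 0 (median -0.28), and of 14 ventral and striatal genes, 14 were below 0 (median -0.39), their sum being 174 to 828 CPM in the knockouts and 337 to 1026 CPM in the controls. Further upper layer and callosal neuron genes, a list with Lhx2, Lmo4 and Plxnd1, were split, with 7 of the 15 tested above 0 and a median of -0.02. Pantr1, a noncoding RNA transcribed next to Pou3f3, was at a log2 fold change of 0.34 (SE 0.09, adjusted p = 0.697). The cortical excitatory neuron markers gave values like those of the upper layer genes, 5 of 6 above 0 with a median of 0.19. Choroid plexus genes were below 0 in 3 of 3 tested (median -1.15), and vessel, blood and microglia genes in 6 of 8 (median -0.26). In rostral libraries 7 of the 8 intermediate progenitor genes were below 0 (median -0.09). The part of progenitor, neuronal, ventral, choroid plexus and vessel content in the Pou3f2 and Unc5d values was not tested. Nor was that of sex, which by Xist and Y-linked transcripts differed between control caudal 1 and the knockout caudal libraries.

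The design also sets caudal against rostral cortex. As labelled, no upper layer gene was called in either genotype, and no gene at all was (0 of 17734 in each, percentage called 0). At an unadjusted p under 0.05 there were 530 genes in the controls and 1756 in the knockouts, and DESeq2 called 0 and 93. The largest differences of the 9 in the controls were those of Inhba (log2 fold change -0.61, SE 0.38) and Rorb (-0.49, SE 0.41), and in the knockouts those of Inhba (-0.66, SE 0.38), Pou3f2 (0.63, SE 0.38), Unc5d (0.55, SE 0.29) and Pou3f3 (0.42, SE 0.20), with edgeR adjusted p-values of 0.528 or above. The size of these values depended on which titled embryo was left out. Between parts in the knockouts, Pou3f2 gave 0.11 without knockout 2 and 1.25 without knockout 5, Unc5d 0.24 and 1.11, and Pou3f3 0.25 and 0.77. Inhba gave -0.19 without knockout 5 and -1.19 without knockout 7, and Rorb in the controls gave -0.27 without control 1, -1.12 without control 3 and -0.10 without control 9. Pou3f3 gave 0.27 and Unc5d 0.36 without knockout 7. No gene of the 9 had groups without overlap in either direction (background 3.03% higher and 5.61% lower in the controls, 6.33% and 6.67% in the knockouts). In the knockouts the caudal libraries and rostral 7 held Xist, and rostral 5 and 2 held Y-linked transcripts. Sex and labelled part can therefore largely not be told apart there.

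Because the labels did not follow Nr2f1 in every embryo, each gene was also fitted against the log2 level of Nr2f1 itself, with genotype as the other term, over the 12 libraries. By their titles these are not 12 independent animals. Xist and Y-linked transcripts went against the titled pairing in knockouts 5 and 2 and control 9, and the pairing of the other titles was not settled. The p-values therefore measure the spread between libraries. The slope is the log2 change per doubling of Nr2f1. Of 16928 genes 1596 were called (9.43%), 828 with a positive slope (4.89%) and 768 with a negative one (4.54%). Of the 9 upper layer genes 4 were called, Rorb, Cux1 and Pou3f2 with a negative slope and Mdga1 with a positive one. The slope was below 0 for 8 of the 9, with a median of -0.14 against 0.01 over all genes, of which 52.43% were above 0. At an unadjusted p under 0.05 there were 4152 genes, and DESeq2 called 2303.

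Rorb followed Nr2f1 most steeply. Rorb (ENSMUSG00000036192.16, chr19:18907969-19088560) was at 19.0, 10.4 and 14.7 CPM in knockout rostral 5, 2 and 7, where Nr2f1 was at 97.1, 340.2 and 205 CPM. It was at 9.35, 21.6 and 9.92 CPM in knockout caudal 5, 2 and 7, where Nr2f1 was at 248, 71.3 and 348 CPM. In control rostral 1, 3 and 9 it was at 17.2, 9.55 and 20.3 CPM beside Nr2f1 at 78.9, 348 and 50.7 CPM, and in control caudal 1, 3 and 9 at 8.41, 15.6 and 8.65 CPM beside Nr2f1 at 343, 58.6 and 373 CPM. The 5 libraries highest in Rorb were the 5 lowest in Nr2f1. Each doubling of Nr2f1 went with a fold of 0.74 in Rorb (slope -0.43, SE 0.04, edgeR adjusted p = 0.00013). The sign was the same in the control libraries (slope -0.40) and the knockout libraries (slope -0.50, edgeR adjusted p = 0.154 over 6 libraries), and whether these slopes differ was not tested.

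Cux1 (ENSMUSG00000029705.18, chr5:136276989-136596344) was at 441, 246 and 257 CPM in knockout rostral 5, 2 and 7 and at 284, 427 and 322 CPM in knockout caudal 5, 2 and 7. It was at 352, 246 and 374 CPM in control rostral 1, 3 and 9 and at 291, 372 and 266 CPM in control caudal 1, 3 and 9. Its 5 highest libraries were again the 5 lowest in Nr2f1. The slope was -0.22 (SE 0.04, edgeR adjusted p = 0.0075). Its paralogue Cux2 had a slope of -0.09 (SE 0.05, adjusted p = 0.290), and a difference between both was not tested.

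The POU factors all had negative slopes. That of Pou3f2 was -0.34 (SE 0.08, edgeR adjusted p = 0.0209), that of Pou3f1 -0.14 (SE 0.04, adjusted p = 0.0585) and that of Pou3f3 -0.13 (SE 0.06, adjusted p = 0.197). Pou3f1 was at 62.1 to 107 CPM in the knockout and 71.7 to 103 CPM in the control libraries. Pou3f2 did not follow Nr2f1 in every library, since knockout caudal 7 held 427 CPM of Pou3f2 beside 348 CPM of Nr2f1. Pou3f4, the remaining gene of that family and one known from the striatum, was called with a slope of -0.59 (SE 0.10, adjusted p = 0.0038).

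Mdga1 (ENSMUSG00000043557.17, chr17:30046923-30189061) ran the other way. It stood at 147, 213 and 106 CPM in knockout rostral 5, 2 and 7, at 133, 112 and 173 CPM in knockout caudal 5, 2 and 7, at 142, 179.7 and 122.8 CPM in control rostral 1, 3 and 9 and at 167, 105 and 172 CPM in control caudal 1, 3 and 9. Its 5 highest libraries all had Nr2f1 at 340.2 CPM or above, while knockout rostral 7 was low in Mdga1 beside 205 CPM of Nr2f1. The slope was 0.21 (SE 0.05, edgeR adjusted p = 0.0275). Unc5d had a slope of -0.19 (SE 0.08, adjusted p = 0.196). Inhba, at 3.39 to 12.4 CPM in the knockouts and 5.04 to 10.8 CPM in the controls, had one of -0.04 (SE 0.14, adjusted p = 0.907).

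**Figure D3:**
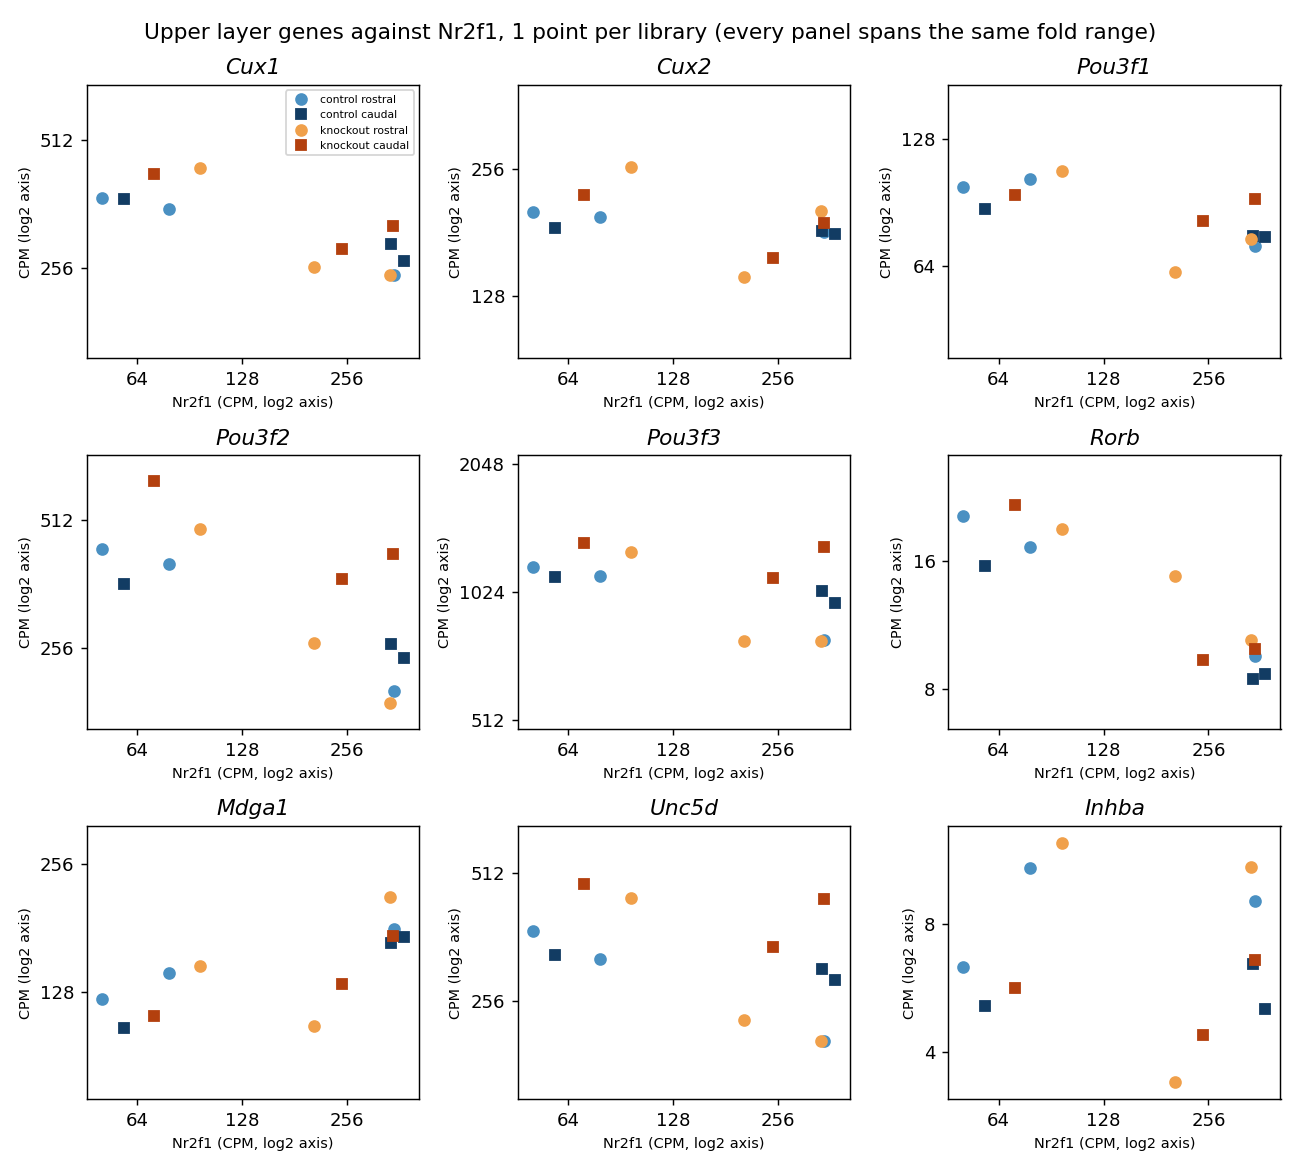
Level of each of the 9 genes (y axis, CPM on a log2 axis spanning the same fold range in each panel) against Nr2f1 (x axis, CPM on a log2 axis), with 1 point per library marked by its labelled group. Rorb and Cux1 fall from left to right, Mdga1 rises, and Inhba shows no slope (-0.04 per doubling).

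These calls held to different degrees. Rorb was called in each fit tried except that of the knockout libraries alone. The call of Cux1 was lost without control 3 (slope -0.21, edgeR adjusted p = 0.0572) with the titled embryo as a block (adjusted p = 0.0646) and over the knockout libraries alone (0.447). The call of Pou3f2 was lost without knockout 2 (slope -0.27, adjusted p = 0.0504), control 3 (-0.34, 0.0795) or control 9 (-0.36, 0.107), without a filter on low counts (0.0844), without control rostral 1 and 3 (0.0775), with the block (0.0816) and over the knockout libraries alone (0.595). The call of Mdga1 was lost without knockout 2 (slope 0.18, adjusted p = 0.0823), control 1 (0.23, 0.0505), control 3 (0.20, 0.143) or control 9 (0.23, 0.118), without control rostral 1 and 3 (0.0725), with the block (0.0816) and over the knockout libraries alone (0.687). Both were also lost with the sum of ventral markers as a further term, in values that follow. The count over all genes also moved, to 755 genes without knockout 2, 579 without control 3, 458 without control 9 and 577 with the block. Pou3f1 was called by DESeq2 (adjusted p = 0.026) and without knockout 7 (edgeR adjusted p = 0.0071), as was Pou3f3 without knockout 7 (0.0482). With both libraries high in mitochondrial transcripts left out, the 4 genes stayed called and Pou3f1 was called as well (adjusted p = 0.026).

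**Figure D4:**
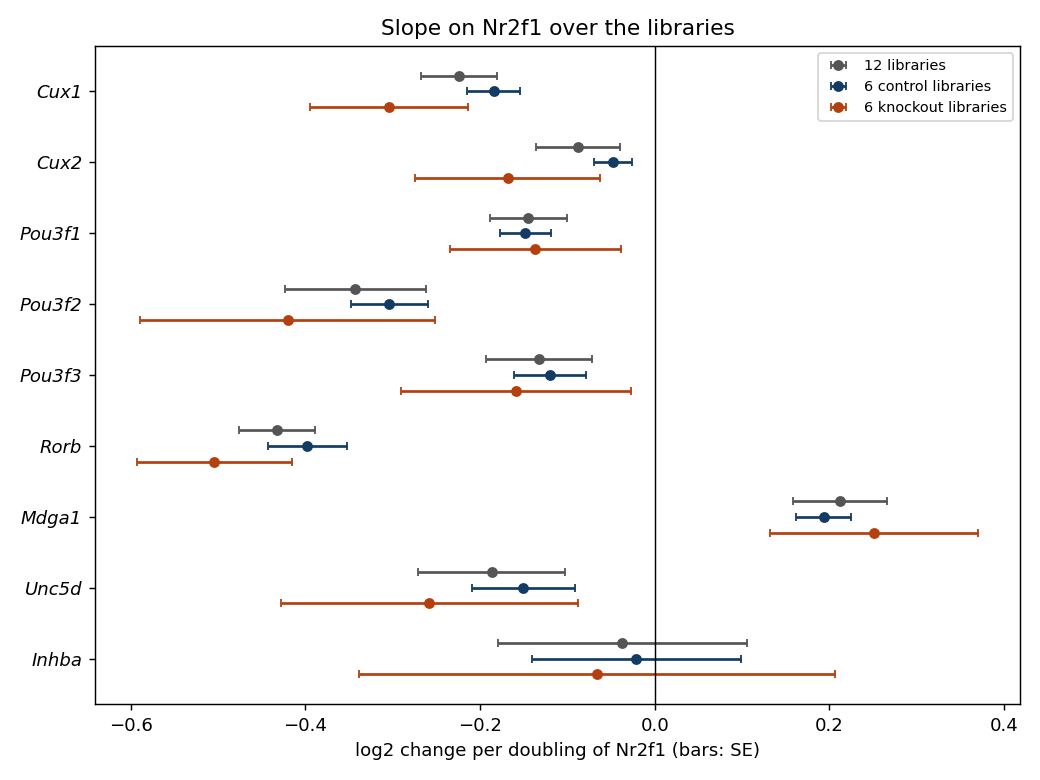
Slope of each gene in log2 change per doubling of Nr2f1 (x axis) over all 12 libraries and over the 6 control and 6 knockout libraries alone; bars are SE. Each of the 9 genes has the same sign in all 3 fits, with the steepest slope in Rorb (-0.43) and the positive one in Mdga1 (0.21).

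Ventral and striatal transcripts moved with Nr2f1 too. The slope was negative for 14 of these 14 markers (median -0.63) and 6 were called, among them Ebf1 (-0.91), Drd1 (-0.73) and Isl1 (-1.32). Over all genes 4.54% were called negative and 4.89% positive. The sum of the ventral and striatal markers was 265, 218 and 653 CPM in knockout rostral 5, 2 and 7, 404, 828 and 174 CPM in knockout caudal 5, 2 and 7, 357, 271 and 776 CPM in control rostral 1, 3 and 9, and 378, 1026 and 337 CPM in control caudal 1, 3 and 9. With that sum as a further term, the slopes of Rorb (-0.44, edgeR adjusted p = 0.0023) and Cux1 (-0.27, 0.0225) stayed called and that of Pou3f2 stayed as steep without passing (-0.40, 0.0808). The slope of Mdga1 then fell to 0.07 (adjusted p = 0.497). Pou3f1 (-0.25, 0.0088) and Inhba (-0.43, 0.0316) were called in that fit. Hippocampal genes ran with Nr2f1, Prox1, Lef1 and Nrp2 being called with slopes of 0.51, 0.59 and 0.63, and their part in the slopes of the upper layer genes was not tested.

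Related genes were split on the same slope, for which 4.89% of all genes were called positive and 4.54% negative. Of 15 further upper layer and callosal genes tested, 3 had positive and 2 negative slopes that were called, among them Lpl, lipoprotein lipase, at 0.48 (SE 0.11, edgeR adjusted p = 0.0188) and Ptn, the growth factor pleiotrophin, at -0.31 (SE 0.05, adjusted p = 0.0026). Among 11 deep layer genes 3 were called positive and 4 negative, with Tbr1, a T-box factor of layer 6, at -0.35 (SE 0.04, adjusted p = 0.00014) and Fezf2, a factor of subcerebral projection neurons, at 0.42 (SE 0.09, adjusted p = 0.0162). Of 8 intermediate progenitor genes none was called. The area patterning genes, of which 4 were called positive and 2 negative among 8, included Fgfr3 at 0.76 (adjusted p = 1.5e-07), Nr2f2 at 1.36 and Etv5 at -0.41.

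Most genes of a list of relatives, ligands and partners of Unc5d were called on this slope. Of these 9 genes, 4 were called positive and 3 negative, against 4.89% and 4.54% of all genes. Flrt1 (slope 0.42, SE 0.06, edgeR adjusted p = 0.0008) and Flrt3 (0.40, SE 0.08, adjusted p = 0.0129) rose with Nr2f1 and Flrt2 fell (-0.28, SE 0.04, adjusted p = 0.002), and the sister receptor Unc5a rose (0.38, SE 0.05, adjusted p = 0.00073). In the activin pathway of Inhba, 1 of 11 genes tested was called, the receptor Acvr2b (-0.15, SE 0.04, adjusted p = 0.0474), and the antagonist Fst was not (0.08, adjusted p = 0.779). Nlgn1, a neuroligin and so of the family that Mdga1 binds, was called with a positive slope (0.28, SE 0.07, adjusted p = 0.0356), while Nlgn2 (-0.04) and Nlgn3 (0.05) were not called. Of the list of 9 relatives and neighbours that holds them, 1 was called positive and 1 negative, and 6 had slopes below 0.

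Over the 12 libraries, several of the upper layer genes went up and down together. The Pearson correlation of log2(CPM + 1) was 0.98 between Pou3f3 and Unc5d, 0.94 between Pou3f2 and Unc5d, 0.92 between Pou3f2 and Pou3f3 and 0.91 between Cux1 and Pou3f2. Mdga1 ran against Rorb (-0.67), and Inhba was closest among the 9 to Cux2 (0.73). These are descriptions over libraries that may share embryos and whose marker sums differ. With Nr2f1 the correlation was -0.92 for Rorb, -0.82 for Cux1, 0.73 for Mdga1 and -0.06 for Inhba.

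**Figure D5:**
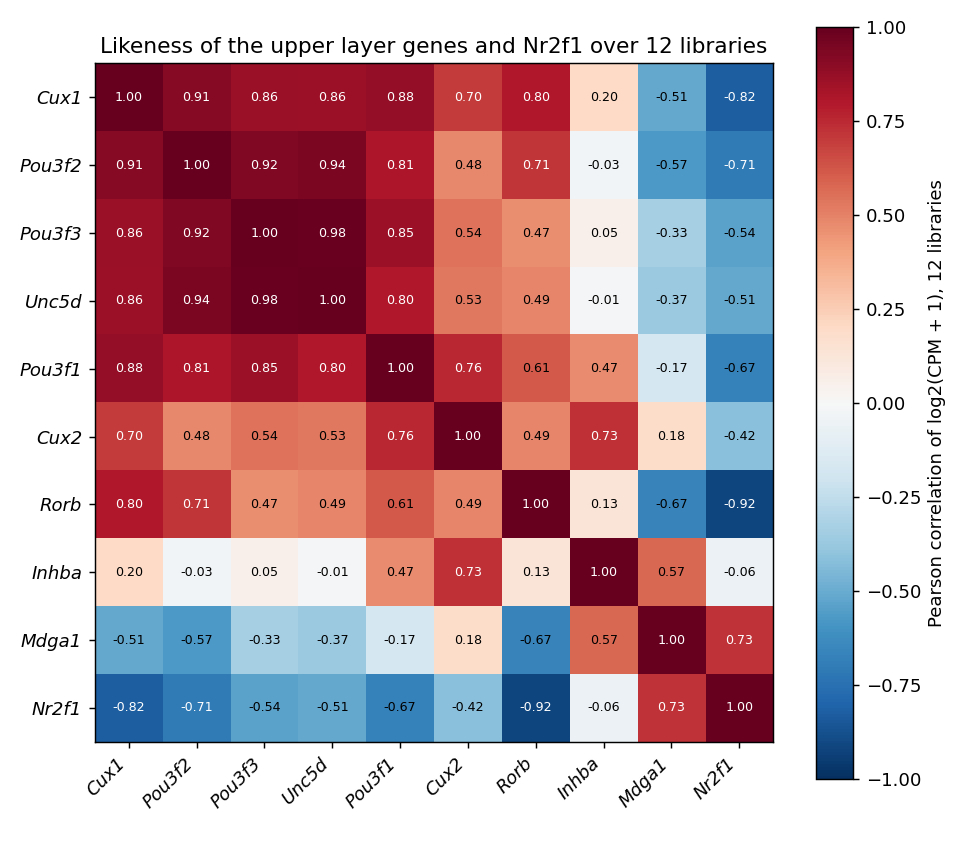
Pearson correlation of log2(CPM + 1) over the 12 libraries between each pair of the 9 genes and Nr2f1; colour and number give the value. Pou3f2, Pou3f3, Unc5d, Cux1 and Pou3f1 form a block of high values, Mdga1 is negative with each of these, and Inhba stands near 0 with Pou3f2, Pou3f3 and Unc5d.

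Among 12549 genes compared, the pattern most like that of Pou3f3 was Unc5d (0.985), and that most like Unc5d was Pou3f3, followed by Focad (0.967) for Pou3f3 and Ankrd6 (0.970) for Unc5d. The closest to Rorb was Tbr1 (0.965), ahead of Cap2 and the cadherin Cdh12 (both 0.959). Cux1 was closest to the axon guidance receptor Robo2 (0.984) and to Nos1, neuronal nitric oxide synthase (0.983), and Cux2 to Gpam (0.958), Limch1 (0.934) and the semaphorin receptor gene Plxna4 (0.928). Pou3f1 was closest to the chromatin organiser Satb1 (0.975), and Pou3f2 to the zinc finger factors Klf3 (0.963) and Scrt2 (0.942), with Fam160a1 between them (0.945). Mdga1 was closest to the synaptic adhesion gene Clstn1 (0.976) and to Mta3 (0.973). Inhba, the least abundant of the 9, was closest to the sialyltransferase St6gal2 (0.982) and to Itpr1 (0.973), an intracellular calcium channel.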

How the data were processed

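RNA from 12 libraries was sequenced as paired reads after mRNA capture, per the labels' protocols. Per the submitters' processing notes the authors used STAR 2.7.8a, featureCounts 2.0.3 and GRCm39. Per the file headers, read pairs were counted on the reverse strand against GENCODE vM28, with multi-mapping and overlapping reads split into fractions. The authors deposited estimated counts (expected counts), with 21.6% to 23.9% of detected genes not whole. For the 9 genes the decimal parts of the values made up at most 0.0109% of the counts of any gene. Split reads can add up to whole numbers, so this does not measure their share. Gene coordinates were copied from the files.

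Rounded counts were fitted in R 4.3.3 with edgeR 4.0.16 (TMM, filterByExpr, robust quasi-likelihood test). Calls are at a Benjamini-Hochberg adjusted p under 0.05 over all genes tested, and the SE is the log2 fold change over the square root of F. Levels are CPM of the library total. Genotypes were compared in rostral libraries, caudal libraries and sums per titled embryo. Parts, the interaction and the Nr2f1 slope were fitted over 12 libraries with no replicate block, since Xist and Y-linked transcripts went against the titled pairing in knockouts 5 and 2 and control 9. Libraries of 1 title correlated at -0.681 to -0.164 (1000 genes of highest within-group variance, deviations from group means). Rostral and caudal labels swapped within an embryo would also give negative values, so this correlation cannot show whether libraries are paired. Alternatives were DESeq2 1.42.0 (size factors and Wald test), no filter, each titled embryo left out, blocks, and further terms. The fits were also run on simulated data, and the outcome is not reported here.

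The 9 genes and 12 lists were chosen with earlier results of these data known. The text names the 9 genes, Egfr, Nr2f1, up to 4 called genes of a list (otherwise 1 or 2 with small p) and up to 3 genes of most like pattern by Pearson correlation (mean of at least 1 CPM, predicted genes and pseudogenes left out). Fst was named for its role. Some items are not reported here. Whether replicates of a group came from separate litters is not given in the sources used here.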

Additional observations from a re-analysis of the deposited data

How the results depend on the processing

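With DESeq2's size factors in edgeR, each count of genes called stayed within 1.5 times its value. In rostral libraries DESeq2 called 4 genes, no filter on low counts 2 and all 12 libraries in 1 fit 2, against 0. In caudal libraries, where 8 were called, these gave 77, 57 and 3, and leaving out 1 titled embryo gave 2 to 8. In the sums, where 6 were called, DESeq2 called 32, no filter 113 and genotype with part over 12 libraries 3, and leaving out 1 embryo gave 2 to 21. Leaving out 1 embryo gave 0 to 8 calls between parts in the controls and 0 to 6 for the interaction, and DESeq2 called 93 genes between parts in the knockouts. On the Nr2f1 slope (1596 calls) leaving out 1 embryo gave 458 to 1672, leaving out both control libraries with Xist and Y transcripts 818, the 6 control libraries 515, the 6 knockout libraries 6, and the ventral marker sum as a further term 743. That last fit, and those without the libraries high in mitochondrial counts, were chosen after seeing the data. The smaller fits hold fewer libraries, and the cause of the other moves was not tested.

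With the replicate block 577 genes were called on the slope, and 0 between parts in either genotype and for the interaction. With the number 4858 or 4692 as a block, 0, 6 and 8 genes were called between genotypes in rostral libraries, caudal libraries and the sums, and no call of the 9 genes changed. Xist and Y-linked transcripts went against the embryo numbers in knockouts 5 and 2 and control 9, and the pairing of the other titles was not settled. A call lost under the block is therefore not read as a weaker effect, nor as an equal one. No result of the 9 genes reversed once called. In the genotype comparisons 2 of their values passed that had not, Pou3f2 and Unc5d in the sums with no filter, and none of the 9 passed in any other. The sign of an uncalled value changed in 22 of 108 refits in rostral libraries, 9 of 99 in caudal libraries and 11 of 126 in the sums. With genotype and Nr2f1 as terms over 12 libraries, the genotype difference was 0.45 for Pou3f2 and 0.32 for Unc5d (log2, edgeR adjusted p = 1 for each), and 0.52 and 0.42 without the libraries high in mitochondrial counts (adjusted p = 1 for each). Without control rostral 1 and 3 the difference in the sums was 0.19 and 0.10. Inhba, the least abundant gene, had 95 to 338 counts a library.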
